A study of Mus musculus with 4 samples.

Results

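The tumour suppressor p53, its regulators, a set of its targets and the Bcl2 family and caspase genes were examined in RNA-seq libraries of mouse embryonic stem (ES) cells. The 39 genes were chosen by name, as Trp53 with its regulators and targets and the genes of the mitochondrial and death-receptor routes of apoptosis, and all 39 were found among the 24054 gene rows of the count tables. The study compared 1 wild-type culture of the ES cell line wt26 (label wt26p46) with 3 Morc3 rescue clones, 3C, 3D and 3M. Each clone was isolated singly from 1 Morc3 knock-out clone of wt26 that had been transfected with a PiggyBac construct in which the human PGK promoter drives a Morc3 cDNA linked to puromycin resistance, and the clones were selected with puromycin. All 4 cultures were grown without feeder cells on gelatin in medium with serum and LIF. The Morc3 ko cells were not analysed here, so what the clones share with their ko parent cannot be told apart from what the rescue construct did.

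p53 is a transcription factor that is kept low by the ubiquitin ligase Mdm2 and its relative Mdm4, and that is stabilized when DNA breaks, replication stress or chromosome missegregation are sensed. Its targets then hold the cell cycle (Cdkn1a, which encodes the inhibitor p21), repair DNA, feed back on p53 itself (Mdm2, Ccng1, Ppm1d) or start apoptosis through the BH3-only proteins Bbc3 (PUMA) and Pmaip1 (NOXA), which free Bax and Bak1 to open the mitochondrial outer membrane. Mouse ES cells are known for abundant p53 and for dividing with little G1 control, and gains of whole chromosomes arise in their cultures. The question put to these genes was whether clones with higher expression of chromosome 13 or 14 show a p53 response.

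p53 binds a palindromic site of a pair of half-sites. The RefSeq promoter windows of GRCm38.p6, from 250 bases before to 50 after each listed start of a gene, were searched on both strands at once (the site is its own reverse complement) for a pair of p53 consensus half-sites of 10 bases each. Up to 1 base was allowed between them, the core CNNG of both had to be intact, and at most 3 of the 20 bases could differ from the consensus. Windows were found for 31 of the 39 genes, and 8 of these, or 25.8%, held such a site, against 884 of the 27025 genes with a window, or 3.27%. Since known p53 targets were among the genes chosen by name, this higher share is not a result of the libraries. No window was at hand for Trp53inp1, Zmat3, Perp, Rrm2b, Ddb2, Xpc, Tnfrsf10b and Pmaip1. The 8 sites are shown 5′ to 3′ on the strand of the gene with the half-sites in capitals, because they mark the members whose start region carries a sequence of the kind that p53 reads.
Cdkn1a, chr17:29090908-29090967, plus strand: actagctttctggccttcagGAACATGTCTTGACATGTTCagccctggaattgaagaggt
Ccng1, chr11:40755442-40755501, minus strand: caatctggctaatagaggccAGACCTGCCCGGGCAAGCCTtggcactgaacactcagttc
Bax, chr7:45467059-45467119, minus strand: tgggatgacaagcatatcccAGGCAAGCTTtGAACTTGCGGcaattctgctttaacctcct
Trp73, chr4:154097200-154097259, minus strand: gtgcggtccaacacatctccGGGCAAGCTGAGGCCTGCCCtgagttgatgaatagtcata
Bbc3, chr7:16309466-16309525, plus strand: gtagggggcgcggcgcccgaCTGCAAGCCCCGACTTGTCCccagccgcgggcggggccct
Aen, chr7:78895917-78895976, plus strand: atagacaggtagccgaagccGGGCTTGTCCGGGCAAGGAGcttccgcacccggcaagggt
Sesn1, chr10:41887246-41887305, plus strand: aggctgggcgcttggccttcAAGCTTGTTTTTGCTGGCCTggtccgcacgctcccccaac
Trp53, chr11:69580264-69580323, plus strand: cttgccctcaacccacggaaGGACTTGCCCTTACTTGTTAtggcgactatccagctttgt

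The sites of Cdkn1a and Ccng1 came closest to the consensus, with 1 mismatch each. The site of Cdkn1a begins 51 bases before the listed start and that of Ccng1 195 bases before it. Those of Bax, which has a spacer of 1 base, and Trp73 had 2 mismatches, and the others had 3. The printed sites of Trp73, Sesn1 and Bbc3 belong to listed starts inside the span of the gene. A gene with more listed starts had more windows to search. A match describes the sequence only, and a window without one says nothing about p53.

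The 4 libraries held between 13620914 and 18789457 read pairs on genes, the highest in wild type, which were between 45.1% and 52.7% of all their read pairs. Values are given as CPM, the read pairs of a gene per 1000000 read pairs on genes after scaling by edgeR's TMM factors, and differences between libraries as log2 of CPM. Morc3 had 161 CPM in wild type and 655, 497 and 609 CPM in clones 3C, 3D and 3M, so every clone was above wild type, as its label as a rescue implies. All 10 ES cell markers had more than 20 counts in every library and summed to between 5465 and 6133 CPM, while 14 markers of differentiated cells and fibroblasts summed to between 24.0 and 51.9 CPM, with 2 to 4 of them at 0. Thy1 made up most of this second sum, with 31.7 CPM in wild type and 43.7, 18.6 and 22.7 CPM in the clones. These are bulk libraries, in which fewer cells of a kind and less RNA per cell cannot be told apart. On the log2 scale the median gene of chromosome 14 exceeded wild type by 0.34 in 3C, 0.34 in 3D and 0.35 in 3M, and the median gene of chromosome 13 by 0.48, 0.03 and 0.48.

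Of the 39 genes, 38 had enough counts for the test of rescue against wild type, all except Fas. None of them reached an adjusted p under 0.01 with edgeR's quasi-likelihood test over all 13267 genes, where 0.00754% of all genes were called. Morc3 was not called by this test either, at a log2 fold change of 1.87 (SE 0.17, adjusted p = 0.11). A change of that size could thus be missed, and the lack of calls does not show that the members were unchanged. DESeq2 called 1 member, Perp, where it called 0.49% of all genes, and limma-voom called 0 members and 0% of all genes. At an unadjusted p under 0.05 there was 1 member, Perp, or 2.63% of the 38, against 10.3% of all genes tested. All 3 clones lay above wild type for 11 members and below it for 11, or 28.9% each, against 28.7% and 28.4% of all genes tested, so these shares were near the background. The median log2 fold change of the 38 members was 0.02, beside 0.01 for all genes, and 32 of them (84.2%) had a log2 fold change under 0.5 in size, as did 85.8% of all genes. With 1 wild-type library the spread in this test comes from the 3 clones alone, and that of wild type is taken to be the same. Below, a fitted change is the log2 fold change of rescue over wild type from edgeR's quasi-likelihood test, with its standard error (SE) and Benjamini-Hochberg adjusted p over all genes. The 95% interval of the fold change lay between a halving and a doubling, from -1 to 1 on the log2 scale, for 32 of the 38 members. The plot of fitted changes shows these intervals.

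**Figure D1:**
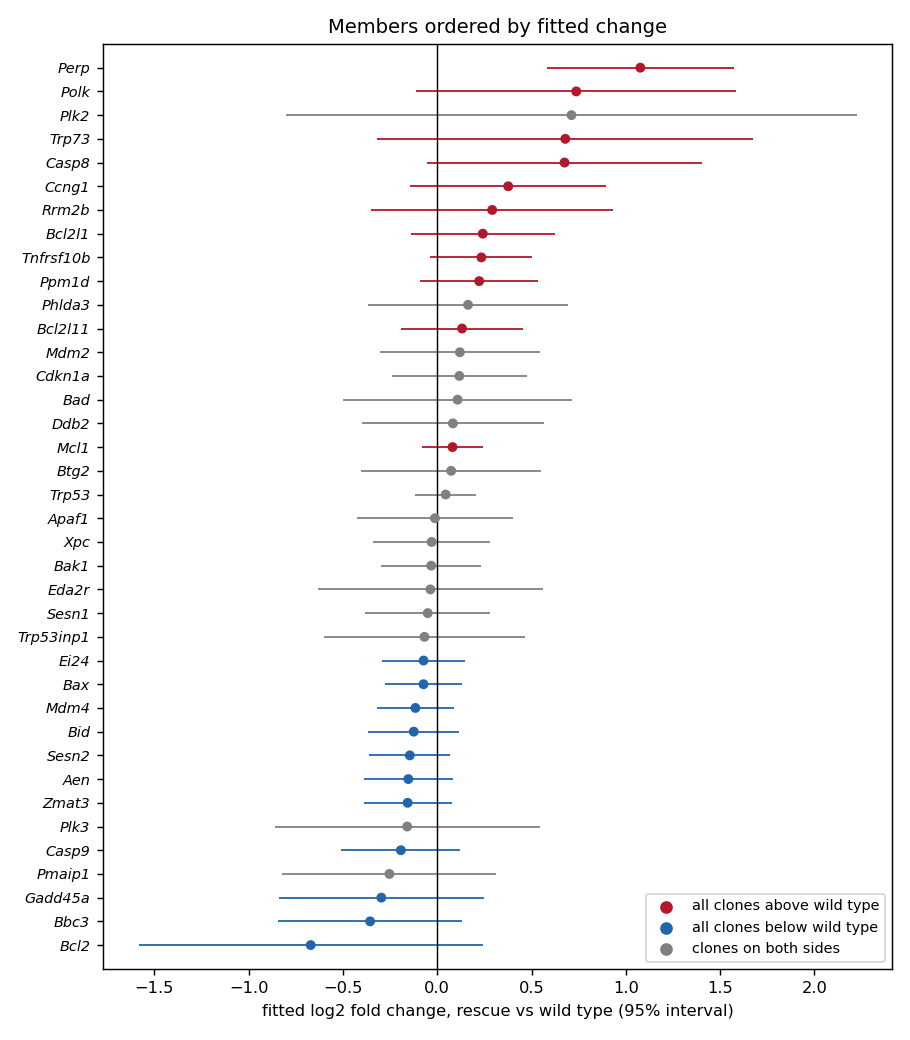
Fitted log2 fold change of rescue vs wild type for the 38 tested members, with 95% intervals from edgeR's quasi-likelihood fit (x axis) and 1 gene per row; red and blue mark genes with all 3 clones above or below wild type. Perp, at 1.08 with an interval from 0.58 to 1.57, stands apart from zero, and the intervals of the other 37 cross it.

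Trp53 had the highest level per exon length of the 38 members. Per kb of exon its level was 185 CPM in the wild-type culture and 191 ± 5.70 CPM (SD, n = 3) over the clones, ahead of the pore-former Bax with 88.9 CPM per kb in wild type and the survival factor Mcl1 with 82.1. Its levels were 346 CPM in wild type and 364, 344 and 361 CPM in clones 3C, 3D and 3M. The clones fell on both sides of wild type, and the 95% interval of the fitted change ran from -0.12 to 0.21. Trp53 lies on chromosome 11 from 69580348 to 69591873. At the other end, Bcl2 and the p53 relative Trp73 had 0.160 and 0.148 CPM per kb in wild type. The plot of levels per exon length gives the order of all members.

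**Figure D2:**
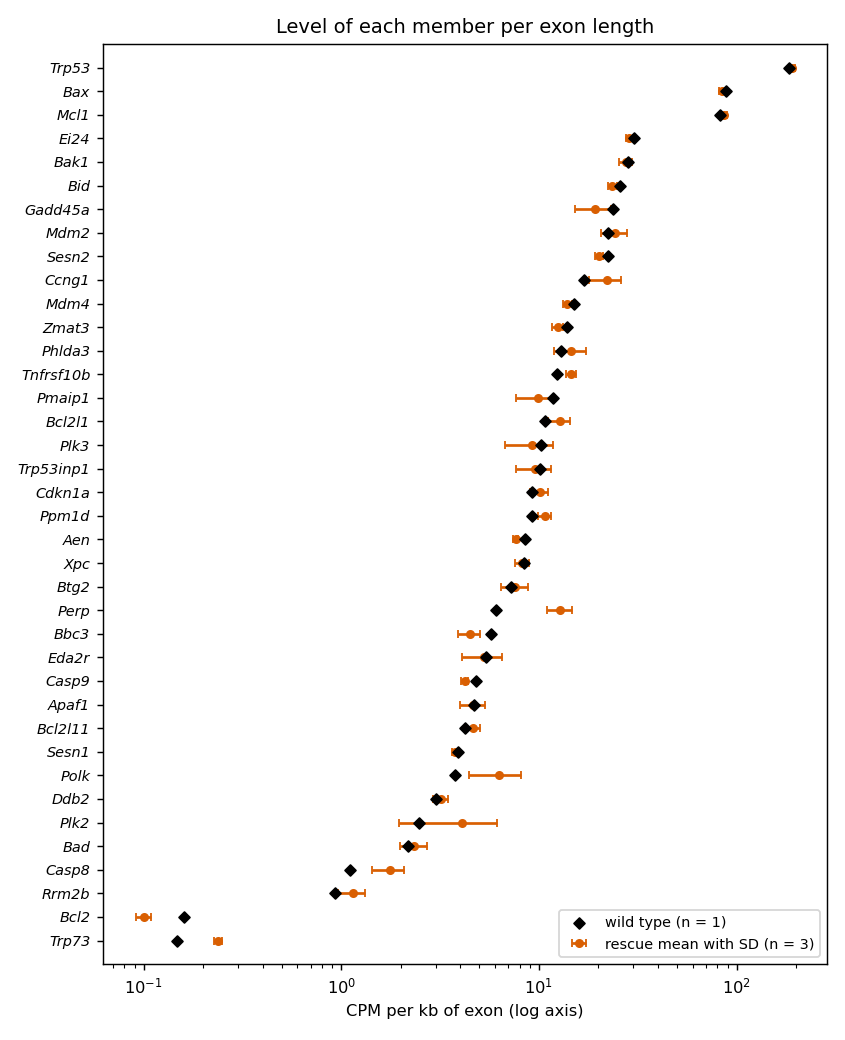
Level of each tested member in CPM per kb of exon (x axis, logarithmic), with wild type as black diamonds and the mean of the 3 rescue clones with its SD as orange points. Trp53, Bax and Mcl1 lead, and Perp has a rescue mean of 12.8 CPM per kb beside 6.07 in wild type.

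Of the regulators, Mdm2, the ligase that marks p53 for degradation and is itself a p53 target, had 70.2 CPM in wild type and 80.5, 63.4 and 85.0 CPM in clones 3C, 3D and 3M. Clones 3C and 3M were above wild type and 3D below it. Mdm4, which holds p53 inactive, had 164 CPM in wild type and 145, 148 and 160 CPM in the clones, a fitted change of -0.12 (SE 0.08, adjusted p = 0.66). Ppm1d, a phosphatase that ends p53 signalling, had 26.7 CPM in wild type and 30.0, 33.9 and 29.6 CPM in the clones, a fitted change of 0.22 (SE 0.13, adjusted p = 0.59). Trp73 had 15 counts in the wild-type library and 18, 18 and 19 in those of the clones, and its fitted change of 0.68 (SE 0.40, adjusted p = 0.60) had an interval from -0.32 to 1.68.

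Of the 6 arrest and growth targets, 1 lay above wild type in every clone, 1 below it, and 4 on both sides. Cdkn1a, on chromosome 17 from 29090979 to 29100722, had 25.2 CPM in wild type and 30.0, 24.5 and 27.7 CPM in clones 3C, 3D and 3M. Clones 3C and 3M were above wild type and 3D slightly below, and the 95% interval of the fold change ran from -0.24 to 0.47 on the log2 scale. Ccng1, which encodes cyclin G1 and is among the most responsive p53 targets in mouse cells, had 59.6 CPM in wild type and 82.7, 61.1 and 88.3 CPM in the clones. It was well above wild type in 3C and 3M and close to it in 3D, with a fitted change of 0.38 (SE 0.21, adjusted p = 0.58). It lies on chromosome 11 from 40748552 to 40755309.

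Btg2, an antiproliferative cofactor, had 19.8 CPM in wild type and 23.3, 17.2 and 22.1 CPM in the clones, in the same order of clones around wild type as Cdkn1a. Gadd45a, a growth-arrest and repair gene, had 28.9 CPM in wild type and 18.2, 27.6 and 24.6 CPM in the clones, a fitted change of -0.30 (SE 0.22, adjusted p = 0.67), and here 3C was the lowest clone. The stress-responsive Polo-like kinases varied between clones. Plk2 had 6.92 CPM in wild type and 16.1, 4.81 and 13.2 CPM in clones 3C, 3D and 3M, and Plk3 had 24.5 CPM in wild type and 28.0, 16.0 and 21.9 CPM. Plk2 had the largest SD between clones of all 38 members, 0.92 on the log2 scale, against a median of 0.14 over the members and 0.13 over all genes tested.

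**Figure D3:**
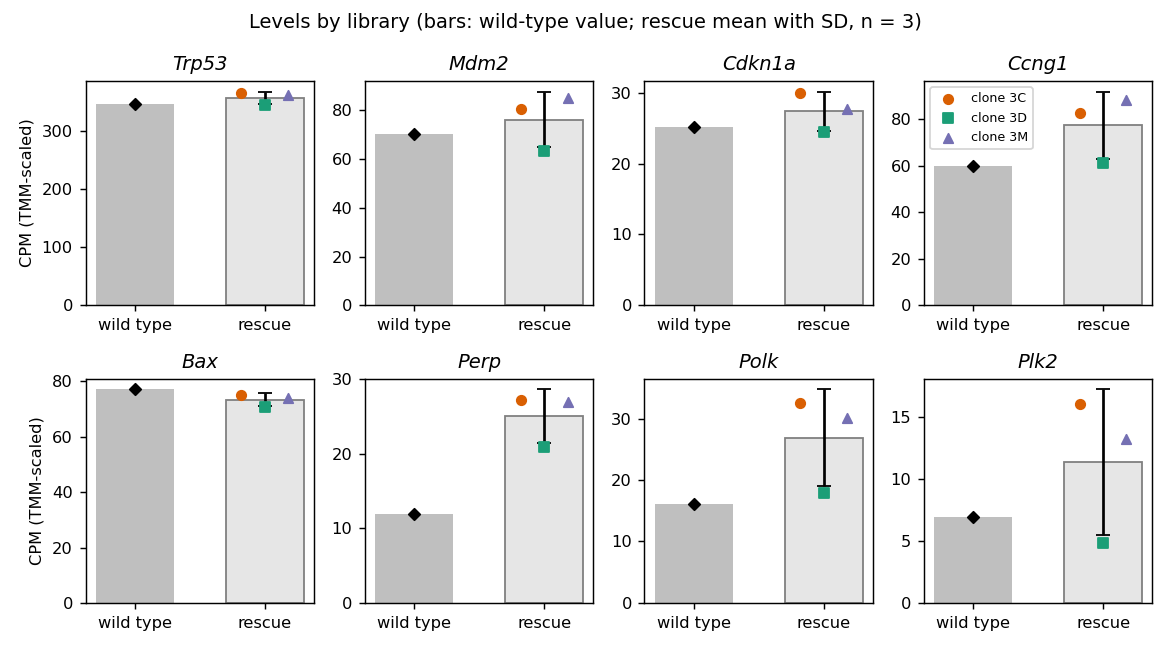
CPM of 8 members by library, with wild type as a grey bar and the mean of the rescue clones with its SD (n = 3) as a light bar; points are libraries. Trp53 has 346 CPM in wild type and 344 to 364 in the clones, Perp is above wild type in every clone, and Ccng1, Polk and Plk2 are above it in 3C and 3M while 3D lies near or below it.

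Perp, a tetraspan membrane protein of desmosomes that is needed for p53-dependent apoptosis in some cells, had the largest fitted change of the 38 members. It was counted 226 times in wild type and 367, 304 and 417 times in clones 3C, 3D and 3M, or 11.8 CPM against 27.2, 20.9 and 26.9 CPM. Every clone was above wild type, with a mean of 25.01 ± 3.57 CPM (SD, n = 3) and a fitted change of 1.08 (SE 0.20, unadjusted p = 0.0020, adjusted p = 0.20), so it did not pass over all genes. DESeq2's Wald test, run as an alternative, called it with an adjusted p of 0.0074, and so did edgeR's test without clone 3D, with 0.00057. Over the other alternatives the adjusted p lay between 0.18 and 0.73. Perp lies on chromosome 10 from 18845071 to 18857073.

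None of the other 7 targets for stress handling and cell death had an unadjusted p under 0.05. Sesn1 and Sesn2, which limit oxidants and mTORC1, had 15.5 and 77.4 CPM in wild type. Sesn1 had 14.6, 15.5 and 14.7 CPM in the clones, close to wild type in each. Sesn2 had 73.4, 67.7 and 69.0 CPM, all below wild type, with a fitted change of -0.15 (SE 0.09, adjusted p = 0.60). The RNA-binding protein gene Zmat3 had 109 CPM in wild type and 101, 90.4 and 101 CPM in the clones, a fitted change of -0.16 (SE 0.09, adjusted p = 0.60).

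Aen, a nuclease active in apoptosis, had 43.6 CPM in wild type and 40.7, 38.5 and 38.3 CPM in the clones, a fitted change of -0.15 (SE 0.10, adjusted p = 0.62). Ei24, a target at the endoplasmic reticulum, had 73.3 CPM in wild type and 73.2, 67.6 and 68.4 CPM in the clones, with a fitted change of -0.07 (SE 0.09, adjusted p = 0.81). Trp53inp1, which supports p53 activity and autophagy, had 54.5 CPM in wild type and 51.4, 41.7 and 62.7 CPM. Phlda3, an inhibitor of Akt, had 18.7 CPM in wild type and 24.8, 17.2 and 20.8 CPM, with 3D again the lowest clone for both genes.

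Of the 4 repair targets, the DNA polymerase kappa gene Polk showed the widest difference. It had 16.1 CPM in wild type and 32.6, 17.9 and 30.1 CPM in clones 3C, 3D and 3M, so it was about doubled in 3C and 3M, by 1.01 and 0.90 on the log2 scale, and 0.15 above wild type in 3D. Its fitted change was 0.74 (SE 0.34, adjusted p = 0.53). Rrm2b, a ribonucleotide reductase subunit for repair, had 4.25 CPM in wild type and 5.27, 5.98 and 4.39 CPM in the clones, with a fitted change of 0.29 (SE 0.26, adjusted p = 0.73). The damage sensors of nucleotide excision repair lay on both sides of wild type, Ddb2 with 6.97 CPM in wild type and 8.16, 7.15 and 6.91 CPM in the clones, and Xpc with 30.6 CPM and 32.0, 30.6 and 27.4 CPM.

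Of the 39 genes, 3 lie on chromosomes 13 and 14. Polk, on chromosome 13 from 96480687 to 96542579, and Plk2, on the same chromosome from 110395044 to 110400844, followed the order of the chromosome as a whole, high in 3C and 3M. Their differences from wild type in these clones, 1.01 and 0.90 for Polk and 1.20 and 0.92 for Plk2, were larger than the medians of chromosome 13, and in clone 3D Plk2 was 0.51 below wild type. Tnfrsf10b, the TRAIL death receptor, lies on chromosome 14 from 69767472 to 69784411. Its level was 39.4 CPM in wild type and 48.7, 43.1 and 47.1 CPM in the clones, which was 0.31, 0.13 and 0.26 above wild type, with a fitted change of 0.23 (SE 0.11, adjusted p = 0.53). The part of the chromosome-wide differences in these values was not tested.

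The death receptor Fas had 4 counts in the wild-type library and 1, 0 and 0 in those of the clones. A count of 0 allows up to 0.205 CPM in clone 3D and 0.194 CPM in 3M, for counting error only, so no difference could be detected at this depth. Eda2r, the X-linked receptor for ectodysplasin A2, had 26.0 CPM in wild type and 22.6, 21.3 and 32.0 CPM in the clones. Casp8, the caspase that death receptors activate, had 61 counts in the wild-type library and 58, 70 and 95 in those of the clones, or 3.20 CPM against 4.30, 4.81 and 6.13 CPM. All clones were above wild type, with a fitted change of 0.67 (SE 0.29, adjusted p = 0.51). On the mitochondrial side, Apaf1, the scaffold of the apoptosome, had 743 counts or 38.96 CPM in wild type and 39.6, 32.7 and 43.5 CPM in the clones, and Casp9, which it activates, had 18.8 CPM and 16.5, 15.8 and 17.1 CPM, a fitted change of -0.19 (SE 0.13, adjusted p = 0.63).

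In the Bcl2 family, the BH3-only genes that p53 induces lay at or below wild type except Pmaip1 in clone 3C. Bbc3 had 10.4 CPM in wild type and 8.38, 7.01 and 9.04 CPM in clones 3C, 3D and 3M, below wild type in every clone, with a fitted change of -0.36 (SE 0.20, adjusted p = 0.58). Pmaip1 had 32.2 CPM in wild type and 34.0, 24.7 and 22.6 CPM in the clones. Among the BH3-only genes that signal other stresses, Bcl2l11 (BIM) had 29.2 CPM in wild type and 30.6, 30.0 and 35.0 CPM, Bad 5.19 CPM and 6.60, 4.95 and 5.29 CPM, and Bid, which Casp8 cleaves, 56.1 CPM and 52.0, 53.7 and 48.5 CPM. Bcl2l11 was above wild type in every clone by a fitted 0.13 (SE 0.13, adjusted p = 0.76), and Bid was below it, with -0.12 (SE 0.10, adjusted p = 0.69).

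Neither pore-forming effector had an interval beyond 0.30 in size. Bax had 77.1 CPM in wild type and 75.2, 70.6 and 74.0 CPM in the clones, and Bak1 67.1 CPM and 66.9, 69.6 and 60.3 CPM, with 95% intervals of the fitted change from -0.28 to 0.13 and from -0.30 to 0.23. Bax was below wild type in every clone, by a fitted -0.07 (SE 0.08, adjusted p = 0.79). Of the survival factors, Mcl1 had 280 CPM in wild type and 298, 288 and 304 CPM in the clones, and Bcl2l1 (BCL-XL) 41.9 CPM and 57.0, 45.1 and 46.7 CPM. Mcl1 was above wild type in every clone by a fitted 0.08 (SE 0.07, adjusted p = 0.70), and so was Bcl2l1, with a fitted change of 0.24 (SE 0.15, adjusted p = 0.62). Bcl2 had 28 counts in the wild-type library and 13, 12 and 15 in those of the clones, a fitted change of -0.67 (SE 0.37, adjusted p = 0.57) with an interval from -1.58 to 0.24.

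**Figure D4:**
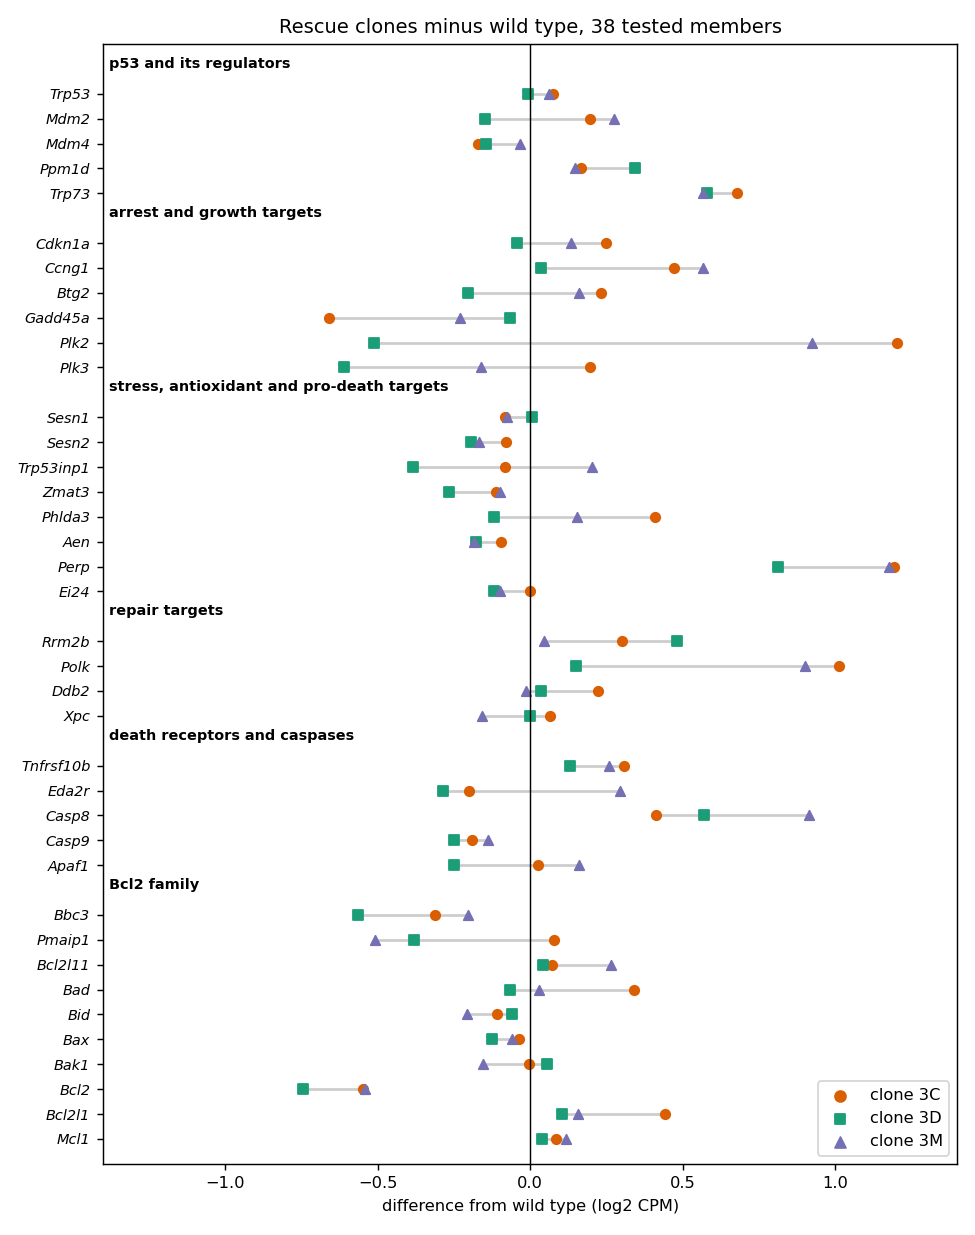
Difference of each rescue clone from wild type in log2 CPM (x axis) for the 38 tested members, grouped by role; symbols are clones and grey lines join the lowest to the highest clone. Clone 3D (green squares) is the lowest clone for 25 of the 38 members, and Plk2 spans the widest range.

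The clones were also set against each other. Clone 3D was the lowest of the clones for 25 of the 38 members, or 65.8%, against 36.4% of all genes tested, while 3C was the lowest for 4 and 3M for 9. Off chromosomes 13 and 14 it was the lowest for 22 of 35 members, against 34.4% of all genes off these chromosomes. It was so for 5 of the 6 arrest and growth targets, 6 of the 8 stress and pro-death targets and 7 of the 10 Bcl2 family genes, which include genes of opposite function, but for 1 of the 4 repair targets. The median differences of the 38 members from wild type were 0.08, -0.07 and 0.05 in clones 3C, 3D and 3M, beside medians of 0.00 for all genes tested. These differences are small beside the median of 0.48 for chromosome 13 in 3C and 3M. They pool p53 targets with p53 inhibitors and with genes for and against death, so they can hide a difference in the targets. The medians in 3C, 3D and 3M were 0.24, -0.14 and 0.15 for the arrest and growth targets. They were -0.08, -0.15 and -0.09 for the stress and pro-death targets, and 0.26, 0.09 and 0.02 for the repair targets. No test was run between clones, each of which is 1 library.

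Without clone 3D, edgeR's test called 4 of the 38 members, Ccng1, Perp, Plk2 and Polk, all of them higher in rescue. Polk and Plk2 lie on chromosome 13. On the log2 scale the median gene of that chromosome exceeded wild type by 0.48 in clones 3C and 3M and by 0.03 in 3D. The part of this chromosome-wide difference in their calls was not tested. In all, 420 genes were called without clone 3D, or 3.17% of those tested. The log2 fold changes were then 0.52 for Ccng1 (adjusted p = 0.0059), 1.19 for Perp, 1.08 for Plk2 (adjusted p = 0.0079) and 0.96 for Polk (adjusted p = 0.0016). Mdm2 was at 0.24 with an unadjusted p of 0.028 and an adjusted p of 0.19, and Cdkn1a at 0.19 with an adjusted p of 0.52. In total, 9 of the 38 members, or 23.7%, had an unadjusted p under 0.05 in that fit, as did 18.6% of all genes. Of these 9, the arrest target Gadd45a was lower in rescue, at -0.43, and the others were higher. Without clone 3C or 3M, no member was called.

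The rest of the pathway was read from 3 further lists, in which edgeR, DESeq2 and limma-voom each called 0 genes. Of 22 other regulators of p53, 21 were tested and none had an unadjusted p under 0.05, with a median log2 fold change of -0.01. All clones lay above wild type for 5 of the 21 (23.8%) and below it for 6 (28.6%), against 28.7% and 28.4% of all genes. Rpl11 had 155 CPM in wild type and 134, 146 and 124 CPM in the clones, a fitted change of -0.20 (SE 0.10, adjusted p = 0.55). Usp7, the deubiquitinase of Mdm2 and p53, had 582 CPM in wild type and 605, 621 and 647 CPM in the clones. Pml, the scaffold of the nuclear bodies where p53 is modified, had 153 CPM in wild type and 187, 155 and 184 CPM, a fitted change of 0.20 (SE 0.12, adjusted p = 0.62).

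Of 44 other p53 targets, 42 were tested, none was called, and 5 (11.9%) had an unadjusted p under 0.05, all higher in rescue, a share near the 10.3% of all genes. All clones lay above wild type for 19 of the 42 (45.2%) and below it for 9 (21.4%), against 28.7% and 28.4% of all genes. The 5 genes were Bnip3l, Sfn, Abhd4, Prkab1 and Triap1. Triap1 and Prkab1 lie near each other on chromosome 5, from 115341231 to 115343553 and from 116013586 to 116024503. Bnip3l, a mitophagy receptor, and Abhd4 lie on chromosome 14, with log2 fold changes of 0.44 and 0.37 (adjusted p = 0.23 and 0.43). Sfn, which encodes the G2 checkpoint protein 14-3-3 sigma, lies on chromosome 4 and had 81.5 CPM in wild type and 104, 99.1 and 103 CPM in the clones, a fitted change of 0.32 (SE 0.08, adjusted p = 0.29). The list had a median log2 fold change of 0.14, with clone medians of 0.13, 0.03 and 0.13 in 3C, 3D and 3M, and 3D was the lowest clone for 21 of the 42 genes. Of the 39 genes of this list with a promoter window, 7 held a p53 site, or 17.9%. Such a site was held by 0 of 21 other regulators and 1 of 28 other apoptosis genes with a window (3.57%).

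Of 35 other apoptosis genes, all were tested, none was called and 6 (17.1%) had an unadjusted p under 0.05, against 10.3% of all genes. All clones lay above wild type for 15 of the 35 (42.9%) and below it for 7, against 28.7% and 28.4% of all genes. No test was made of these shares. The mitochondrial channel gene Vdac2, on chromosome 14, had 244 CPM in wild type and 325, 314 and 309 CPM in the clones, a fitted change of 0.37 (SE 0.07, adjusted p = 0.19). The caspase inhibitors Birc2 and Birc3, neighbours on chromosome 9 from 7818226 to 7837131 and from 7847468 to 7873205, had log2 fold changes of 0.48 and 0.88 (adjusted p = 0.21 and 0.32), and Birc2 was between 0.43 and 0.54 above wild type in the clones. Ripk1, a kinase of death-receptor signalling on chromosome 13, had 14.1 CPM in wild type and 31.7, 21.2 and 32.0 CPM, a fitted change of 1.01 (SE 0.27, adjusted p = 0.32). Bok, a Bcl2 family pore-former, had 13.3 CPM in wild type and 8.83, 7.49 and 7.04 CPM in the clones, a fitted change of -0.77 (SE 0.18, adjusted p = 0.28).

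**Figure D5:**
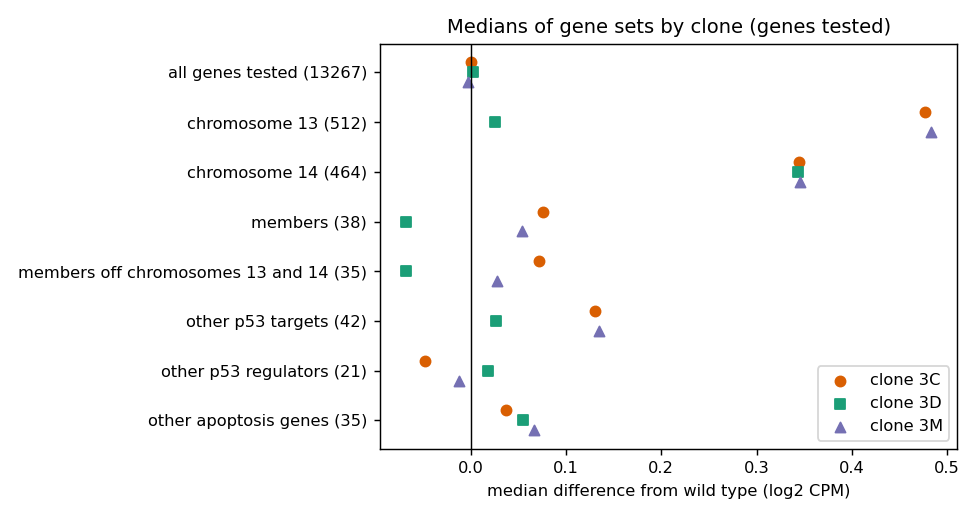
Median difference from wild type in log2 CPM (x axis) of each gene set in clones 3C, 3D and 3M, with the number of genes tested in brackets. Chromosome 13 reaches 0.48 in 3C and 3M and chromosome 14 0.34 to 0.35 in every clone, while the p53 and apoptosis sets plotted stay between -0.07 and 0.13; the smaller role groups, not plotted, ranged from -0.25 to 0.26.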

How the data were processed

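Paired-end reads were aligned by the authors to mm10 with STAR, and its raw counts per gene were deposited without scaling. Which gene annotation was counted is not given in the sources used. Since the kit marks strand, column 4 (reverse strand) was taken, and the 4 rows without a gene, between 47.3% and 54.9% of the read pairs, were left out. The test on counts was edgeR's (version 4.0.16, R 4.3.3; glmQLFit, glmQLFTest, TMM scaling, filterByExpr) with Benjamini-Hochberg adjustment over all 13267 genes, at the study's adjusted p of 0.01. Standard errors are the fold change over the square root of F, and a prior count of 2 was used for log2 CPM. The p-values measure the spread between these clones, and nothing says that they were grown as separate experiments. The steps were tested on simulated counts. DESeq2 1.42.0 and limma 3.58.1 (voom) were run as alternatives.

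Of the 24054 gene rows, 22539 matched RefSeq GRCm38.p6, the assembly of mm10, by symbol and 1351 by 1 synonym. Exon lengths are the merged exons of GENCODE M21. The members and gene lists were chosen with earlier results of these data known. A fitted change with its error is printed for members whose clones all lie on 1 side of wild type, and of each further list at most the 5 genes of lowest p among such genes are named. Intervals of Trp53, Cdkn1a and Bak1, and which members to describe without clone 3D, were chosen after their values were seen. Protein sequences were not used here.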

Additional observations from a re-analysis of the deposited data

How the results depend on the processing

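No member was called in the test as reported, and none with the unstranded column, the 3 other scalings, either filter, limma-voom, edgeR's legacy method or an adjusted p of 0.05. DESeq2's test called 1 member (Perp) and 65 genes in all, where edgeR called 1 gene. The stricter filter, limma-voom and the legacy method called 0 genes. With DESeq2, 2 members and 7 genes of the 3 further lists had an unadjusted p under 0.05, against 1 and 11 as reported, and it gave no adjusted p for 5 members. With each clone left out in turn, edgeR called between 0 and 420 genes, between 0 and 4 members and between 0 and 4 genes of the further lists (Pdcd6, Ptpn14, Ripk1 and Vdac2 without clone 3D). Members with an unadjusted p under 0.05 numbered between 1 and 9, and genes of the further lists between 7 and 23. Members with the remaining clones all above wild type numbered between 11 and 19. Each of these counts was highest without 3D. The share of all genes with an unadjusted p under 0.05 was 10.1% without 3C, 18.6% without 3D and 5.70% without 3M. Among the members it was 7.89%, 23.7% and 2.63%. Without clone 3C, Casp8 and Pmaip1 joined Perp at an unadjusted p under 0.05. Casp8 was higher in rescue, at a log2 fold change of 0.78, as Perp was, and Pmaip1 was lower, at -0.45. Fewer clones make it easier for all to lie on one side, and the share of all genes on one side is not given for these fits. The cause of the other differences was not tested. None of the 37 genes for which every alternative was computed one by one turned direction. Of the members with clones on both sides of wild type, 8 turned sign with a clone left out, to at most 0.094 in size. No paired analysis was possible with 1 wild-type culture against 3 clones, and the labels give no replicate numbers. With 1 wild-type library, its own spread is not measured, and members of few counts, such as Bcl2 and Trp73, have wide intervals.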
